A study of Mus musculus with 9 samples.

Results

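The genes of arginine use, nitric oxide synthesis and hypusine formation were followed as a set of 10 in the myocardium of control, diabetic and spermine-treated diabetic mice. The members were taken by symbol and role from the 22851 genes of the count matrix, by a rule that uses no measured value, although the set was drawn up with earlier results of these data known, and all 10 were found there. Grouped by role they are Slc7a1, Ass1 and Arg2 (arginine supply and use), Nos1 and Nos3 (nitric oxide synthases), Ddah1 and Ddah2 (removal of the inhibitor of nitric oxide synthases) and Eif5a, Dhps and Dohh (hypusine formation).

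Arginine is the common substrate of nitric oxide synthases, which make nitric oxide and citrulline from it, and of arginases, which make ornithine, the precursor of the polyamines, and urea. In the heart, endothelial nitric oxide synthase relaxes coronary vessels through cyclic GMP, neuronal nitric oxide synthase acts inside cardiomyocytes on calcium handling, and asymmetric dimethylarginine, a product of protein breakdown, inhibits these enzymes until dimethylarginine hydrolases remove it. Spermidine, a polyamine and the direct precursor of spermine, donates its aminobutyl group to a single lysine of the translation factor eIF5A, and the modified residue, hypusine, is needed for its activity in protein synthesis.

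The libraries came from heart muscle of male mice of strain C57BL/6 in the labels and C57BL/6J in the methods, aged 6 to 8 weeks at the start per the methods of the study, with 3 libraries in each group. The control check group (CK) received buffer only. The diabetic cardiomyopathy group (DCM) received a single injection of streptozotocin, which kills insulin-producing beta cells, and was followed for 12 weeks. The spermine group (SPM) received the same diabetic model and was injected with spermine at 1 mg/kg, daily for 2 weeks ahead of streptozotocin and then on alternate days for 12 weeks. No group received spermine without diabetes, so the SPM group differed from CK in both treatments. The methods give both 3 mice per group and pools of 6 hearts each, so it was not settled whether a library stands for 1 animal or for a pool.

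Total counts lay between 29901300 and 39718680 per library. The extraction protocol in the labels speaks of retinas whereas the tissue label is heart: 8 cardiomyocyte markers summed to between 43049 and 58040 CPM (normalized counts relative to library size) in every library, and 10 photoreceptor markers to between 0.712 and 2.01 CPM. The cardiomyocyte sum was 43049 to 47826 CPM in SPM, against 50165 to 56053 CPM in CK and 49639 to 58040 CPM in DCM. SPM replicate 2 stood apart from the rest. Its counts deviated by only 1.35 times counting noise from a mixture of 45.4% SPM replicate 1 with SPM replicate 3, and the next closest of the 252 combinations of a library with a pair deviated by 4.53 times. It may therefore not be an independent sample, and the SPM fold changes of the members and most of those of listed genes are given with and without it. Ratio tests, SDs and statements of overlap that involve SPM count it as a full library. The p-values of those ratio tests are given only with it and may be too small. The fold changes of SPM compared to DCM also followed gene GC content (Spearman correlation -0.50 across 14484 genes, which are not independent replicates), and calls that were lost with GC content as an offset in the fit are named as such. Mitochondrially encoded genes took between 13.7% and 18.9% of counts in CK and DCM and between 21.01% and 21.1% in SPM.

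Expressed per transcript length, as FPKM (fragments per kilobase and library size), the members spanned a wide range. Eif5a was the most abundant with a mean of 229 FPKM over the 9 libraries, which placed it at percentile 98.9 of all genes. Ddah2 (34.3 FPKM), Dhps (20.1 FPKM) and Slc7a1 (11.3 FPKM) followed, and each of these neighbours was separated in every library. Ass1 (3.20 FPKM), Nos3 (2.17 FPKM) and Ddah1 (1.45 FPKM) formed a middle group whose ranges over libraries overlapped: Ass1 exceeded Nos3 in 8 of 9 libraries and Nos3 exceeded Ddah1 in 9 of 9. Arg2 (0.292 FPKM), Nos1 (0.0344 FPKM) and Dohh (0.0146 FPKM) were close to the limit of detection, and the ranges of Nos1 and Dohh overlapped. 7 of the 10 members were above 1 FPKM in every library.

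**Figure D1:**
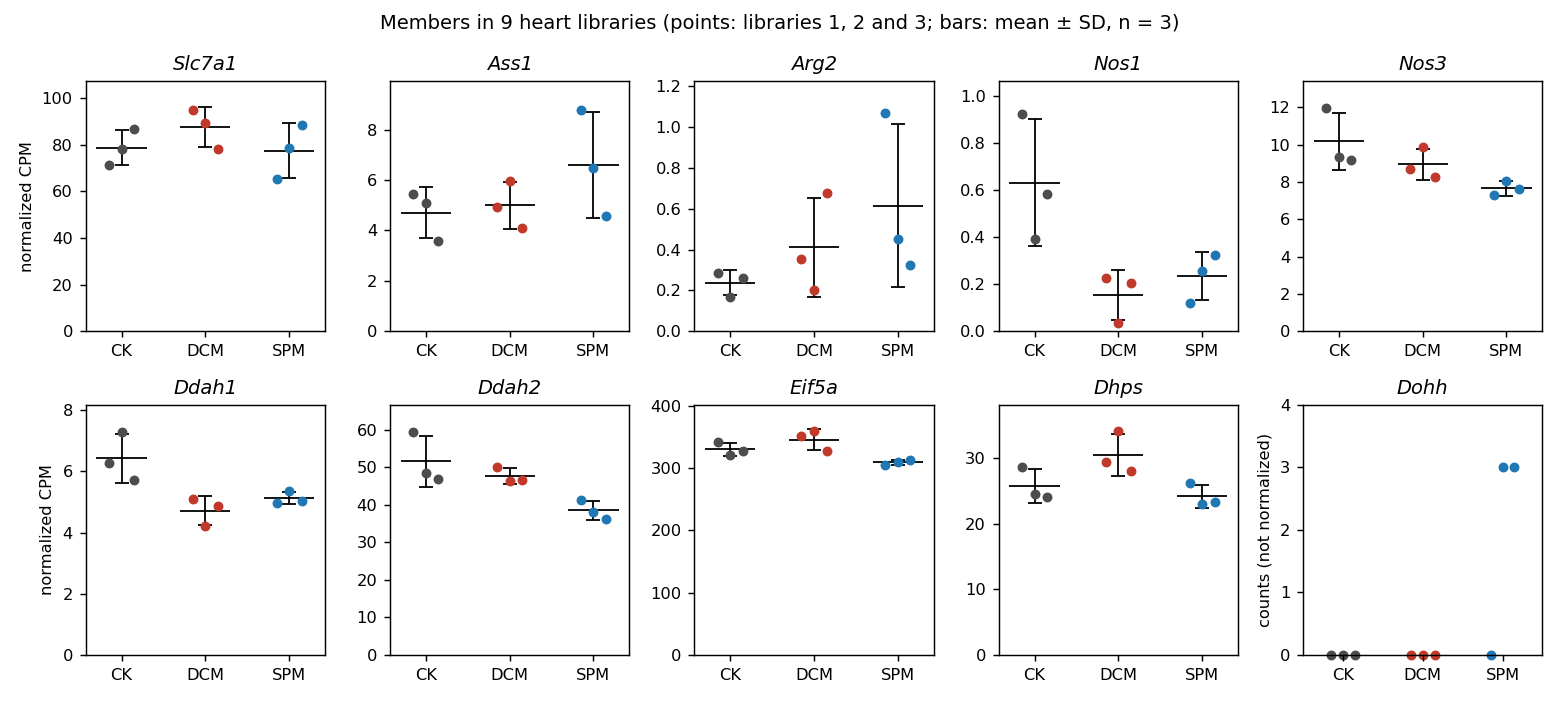
Normalized CPM of each member in the 9 libraries (y axis; x axis: group), with raw counts for Dohh. Points are libraries 1, 2 and 3 from left to right, and bars are the mean ± SD of 3 libraries. Ddah2 lay between 36.3 and 41.1 CPM in SPM and between 46.2 and 50.03 CPM in DCM, and Nos1 was lower in every DCM and SPM library than in every CK library. Nos1 had enough counts for a test only through CK, so its direction is no result.

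Each comparison was tested across all genes with the quasi-likelihood test of edgeR and Benjamini-Hochberg adjustment, and genes with adjusted p below 0.05 are described as having passed the test. Of the 8 members that had enough counts to be tested in DCM compared to CK, 0 passed with edgeR, and 0 with DESeq2 or limma, whereas 10.4% of all genes tested passed (5.11% of all genes in the lower direction). At an unadjusted p below 0.05 there were 3 members (Nos1, Ddah1 and Dhps), against 24.6% of all genes. Of these, Nos1 was tested only through its counts in CK. With the GC offset it was again 0 with edgeR, beside 13.3% of all genes. Between SPM and DCM, 2 of 8 tested members passed, both lower in SPM (Ddah2 and Dhps), beside 16.6% of all genes in either direction and 7.76% in the lower direction, and 3 had an unadjusted p below 0.05 beside 34.6%. Between SPM and CK, 2 of 9 passed, both lower in SPM (Nos3 and Ddah2), beside 27.4% of all genes and 14.3% in the lower direction, and 5 had an unadjusted p below 0.05 beside 40.9%. These 5 include Nos1 and Arg2, which were tested only through their counts in CK and in SPM, respectively. No member reached the fold change of 1.5 that the study asks of a differentially expressed gene (DEG) together with that adjusted p, in any of the comparisons. DEGs made up 4.34%, 3.59% and 9.21% of all genes in the same order.

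These calls were few and close to the threshold. Without SPM replicate 2, 0 members passed in SPM compared to DCM with edgeR, where 0.486% of all genes still passed, and 0 in SPM compared to CK, where 10.4% did. At an unadjusted p below 0.05 these fits held 2 and 3 members, beside 22.0% and 28.6% of all genes. With the GC offset 0 members passed in either comparison with edgeR, where 3.1% and 21.4% of all genes did, and 1 and 4 members had an unadjusted p below 0.05, beside 23.7% and 36.7% of all genes. The median log2 fold change of the tested members was -0.03 in DCM compared to CK, -0.16 in SPM compared to DCM and -0.10 in SPM compared to CK, against -0.00, 0.01 and 0.00 over all genes. Arg2 and Nos1 entered a test only through the group in which they were highest, and Dohh was never tested. The comparisons share libraries, so a high or low DCM library moves the first pair of them in opposite directions.

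**Figure D2:**
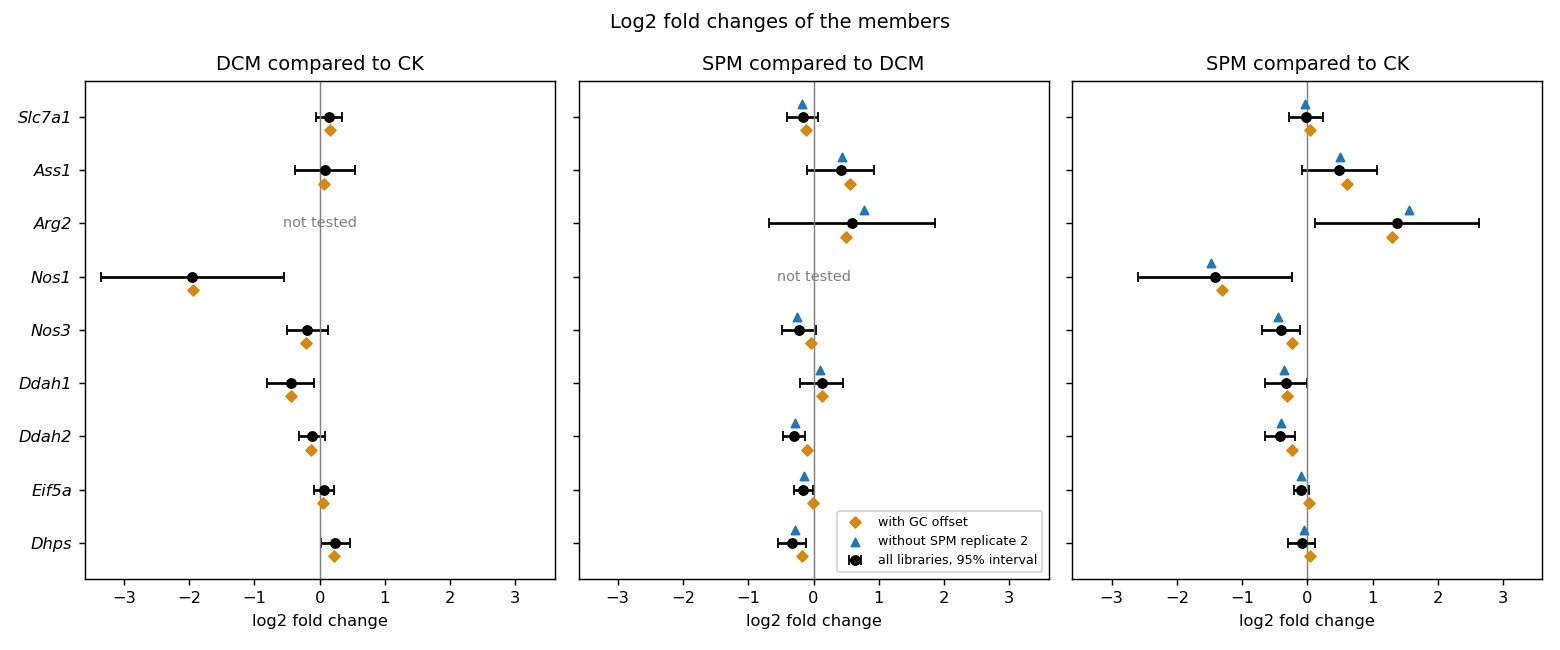
Log2 fold changes of the 9 members that could be tested (x axis; y axis: member) in the 3 comparisons. Black points with bars are the estimates from all libraries with 95% intervals, blue triangles the estimates without SPM replicate 2 and orange diamonds those with the GC offset. The intervals of Ddah2 lie below 0 in both SPM comparisons, and its diamonds lie nearer to 0, at -0.10 and -0.23.

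Among the genes of arginine supply, Slc7a1 was the best measured and did not pass the test in any comparison. Slc7a1 (ENSMUSG00000041313, chr5:148327410-148399904, minus strand, GRCm38) encodes CAT-1, the main cationic amino acid transporter that brings arginine into cells. Its normalized counts were 71.5, 78.3 and 86.7 CPM in CK, 94.96, 89.3 and 78.1 CPM in DCM, against 65.1, 78.7 and 88.6 CPM in SPM. The groups overlapped throughout. The log2 fold change was 0.15 in DCM compared to CK (95% interval -0.05 to 0.35, adjusted p = 0.356) and -0.17 in SPM compared to DCM (-0.41 to 0.07, adjusted p = 0.304). Between SPM and CK it was -0.03 (-0.29 to 0.23, adjusted p = 0.886), and without SPM replicate 2 both SPM values were nearly the same (-0.18 and -0.03).

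Ass1 (ENSMUSG00000076441, chr2:31470207-31520672, plus strand), which encodes argininosuccinate synthase and rebuilds arginine from citrulline, did not pass the test either. It had 5.45, 5.11 and 3.57 CPM in CK, 4.92, 5.97 and 4.11 CPM in DCM, against 8.77, 6.49 and 4.56 CPM in SPM. SPM replicate 1 was the highest of the 9 libraries, and SPM replicate 3 lay within the range of the other groups. The log2 fold change was 0.41 in SPM compared to DCM (-0.10 to 0.93, adjusted p = 0.232) and 0.49 in SPM compared to CK (-0.09 to 1.06, adjusted p = 0.182), and without SPM replicate 2 it was 0.43 and 0.50. Without SPM replicate 3 the values were 0.62 (adjusted p = 0.0472) and 0.69 (adjusted p = 0.0465), so a call for Ass1 appeared when that library was left out. These fits rest on SPM replicates 1 and 2, which may not be independent samples, so their spread may be understated. In DCM compared to CK the value was 0.08 (-0.38 to 0.53, adjusted p = 0.869).

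Liver markers followed the order of Ass1 within the SPM libraries, but not within CK or DCM. SPM replicate 2 lay between replicates 1 and 3 for 67.7% of 13392 genes, so this order says little about a source. Macrophage (1341, 1018 and 796 CPM), smooth muscle and neuronal markers had it in SPM too. Endothelial, cardiomyocyte and fibroblast markers had the reverse order. Macrophage markers also followed Ass1 in CK (1072, 1008 and 807 CPM), but not in DCM. The summed level of 10 liver markers was 377, 188 and 30.6 CPM in SPM replicates 1, 2 and 3, against 27.6 to 32.0 CPM in DCM and from 14.1 to 52.7 CPM in CK, and no liver marker was at 0 in all SPM libraries. Arg1, the liver arginase of the urea cycle, which was picked out after its values were seen, followed the same order in SPM with 150, 64 and 5 counts. It had 4, 6 and 4 counts in DCM and 1, 16 and 8 counts in CK. In bulk tissue a change in the number of cells of a type and a change in RNA per cell cannot be told apart, and the part of liver-type transcripts in the values of Ass1 was not tested.

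Arg2 (ENSMUSG00000021125, chr12:79130777-79156301, plus strand), the mitochondrial arginase found outside the liver, was detected with only a few counts. There were 9, 6 and 8 counts in CK, 14, 6 and 23 in DCM and 35, 14 and 10 in SPM. Every SPM library exceeded every CK library, whereas SPM and DCM overlapped. The log2 fold change of SPM compared to CK was 1.37 (0.11 to 2.63) and missed the threshold (adjusted p = 0.0970, or 0.172 without SPM replicate 2). SPM compared to DCM gave 0.58 (-0.69 to 1.86, adjusted p = 0.502), and the value was 0.77 without SPM replicate 2, while without SPM replicate 1 the direction turned to -0.09. Arg2 was filtered out for low counts in DCM compared to CK, and a fit without the filter gave 0.79 with a standard error of 0.77. Of its exonic bases, 19.96% are shared with Vti1b on the opposite strand, a gene with 3276 to 4476 counts per library, and whether counting used strand was not given in the sources used here, so reads of Vti1b may be among these counts.

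Some other genes of arginine transport passed the test. Of 18 listed genes in the files, 2 of 13 tested passed in DCM compared to CK, beside 10.4% of all genes. Slc7a7, the y+LAT1 light chain that exports cationic amino acids, fell in DCM by 0.78 on the log2 scale (SE 0.14, adjusted p = 0.00384), from a control mean of 10.7 ± 0.56 to 6.19 ± 0.77 CPM (SD, n = 3). Slc3a2, the heavy chain that carries y+LAT1 and related transporters to the membrane, rose by 0.47 (SE 0.07, adjusted p = 0.00117), from 58.4 ± 1.9 to 81.2 ± 3.5 CPM. Neither gene overlapped between CK and DCM. Both differed in the same directions in SPM compared to CK, by -0.62 for Slc7a7 (adjusted p = 0.0105, or 0.0495 without SPM replicate 2) and 0.48 for Slc3a2 (adjusted p = 0.00644, or 0.0315).

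Slc7a2, which encodes the inducible transporter CAT-2, was the only gene of this list past the test in SPM compared to DCM, of 14 tested, beside 16.6% of all genes. It had 7.29, 5.25 and 5.96 CPM in DCM, against 9.38, 8.90 and 7.71 CPM in SPM, and it rose by 0.49 (adjusted p = 0.0461, or 0.168 without SPM replicate 2 and 0.218 with the GC offset). Compared to CK, 6 of 15 passed in SPM, 2 of them higher and 4 lower, beside 27.4% of all genes. Slc7a2 rose by 0.74 (adjusted p = 0.00666, or 0.0409 without SPM replicate 2). The creatine transporter Slc6a8, the other abundant gene of the list, lay between 198.0 and 215 CPM in group means and passed in no comparison. Macrophages are one source of Slc7a7 in tissues: 10 macrophage markers summed to 807 to 1072 CPM in CK, 670 to 792 CPM in DCM, against 796 to 1341 CPM in SPM, with none at 0, and their part in the values of Slc7a7 was not tested.

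Nos1 (ENSMUSG00000029361, chr5:117781032-117958840, plus strand), the neuronal nitric oxide synthase, was lowest in the diabetic libraries but rested on few counts. CK held 29, 14 and 18 counts, DCM 9, 1 and 7, and SPM 4, 8 and 10. All 6 diabetic libraries, with or without spermine, lay below all 3 control libraries. Libraries did not overlap for 29.3% of all genes in DCM compared to CK and for 46.3% in SPM compared to CK. Nos1 was tested only through its counts in CK, where it was highest, so this direction is no result. The log2 fold change of DCM compared to CK was -1.95 (-3.36 to -0.54) with an adjusted p of 0.0789, and that of SPM compared to CK was -1.42 (-2.59 to -0.24) with an adjusted p of 0.0720, so neither passed the test. Without SPM replicate 2 the second value was -1.48 (adjusted p = 0.202). Nos1 was not tested between SPM and DCM, where a fit without the filter gave 0.55 (adjusted p = 0.679) and the libraries overlapped. Neuronal and glial markers summed to 30.9 to 38.2 CPM in CK, 31.4 to 34.9 CPM in DCM, against 34.3 to 36.7 CPM in SPM. Th was at 0 in every DCM and SPM library, but it had only 2 counts over all 9 libraries. The part of these markers in the counts of Nos1 was not tested.

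Nos3 (ENSMUSG00000028978, chr5:24364810-24384474, plus strand), the endothelial nitric oxide synthase, had its highest group mean in CK and its lowest in SPM. It had 11.9, 9.35 and 9.19 CPM in CK, 8.70, 9.86 and 8.27 CPM in DCM, against 7.27, 8.06 and 7.61 CPM in SPM. Every SPM library was below every library of the other groups, and CK and DCM overlapped. Nos3 fell in SPM compared to CK by 0.41 on the log2 scale (SE 0.13, adjusted p = 0.0434), a fold of 0.753 with a 95% interval of 0.616 to 0.920. This call was lost without SPM replicate 2 (-0.45, adjusted p = 0.115), with the GC offset (-0.23, adjusted p = 0.156), with DESeq2 (adjusted p = 0.0542) and without any one of CK replicates 1 and 2 or SPM replicates 1 and 3 (adjusted p between 0.0600 and 0.102). The values were -0.19 in DCM compared to CK (-0.50 to 0.12, adjusted p = 0.468) and -0.22 in SPM compared to DCM (-0.48 to 0.04, adjusted p = 0.216), and the latter was -0.26 without SPM replicate 2 and -0.03 with the GC offset.

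Because endothelial cells make most of the Nos3 in tissue, its level was set against 12 endothelial markers. These summed to 2733 to 3132 CPM in CK, 2721 to 3076 CPM in DCM, against 2471 to 2803 CPM in SPM, with none at 0. Relative to that sum, Nos3 differed by -0.21 (log2) in DCM compared to CK, by -0.06 in SPM compared to DCM and by -0.28 in SPM compared to CK. The DCM and SPM libraries each lay below the CK libraries in this ratio (two-sided exact permutation p = 0.1 for both, the smallest that 3 against 3 libraries allow, and 0.24 adjusted over 12 ratio tests). Within SPM compared to DCM the ratio overlapped (exact permutation p = 0.4). The tests with SPM count SPM replicate 2 as a full library. The markers did not move together, and in DCM compared to CK 1 of the 12 passed higher (Vwf, von Willebrand factor, by 0.79, adjusted p = 0.00187) and 2 passed lower (Tie1 and Tek). Without Vwf, an alternative chosen after seeing the data, the difference in DCM compared to CK was -0.11 with overlapping libraries (exact permutation p = 0.3), that in SPM compared to DCM was -0.06 (p = 0.5), and that in SPM compared to CK was -0.17 with SPM still below CK (p = 0.1), so the separation of DCM from CK rested on Vwf. Of the exonic bases of Nos3, 7.1% are shared with Atg9b on the opposite strand (30 to 71 counts per library) and 25.2% with Gm15587, which was not analysed here.

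The inducible synthase Nos2, which is no member, carried most of the nitric oxide synthase transcripts per length. It made up 67.2% to 76.1% of the summed FPKM of Nos1, Nos2 and Nos3 in the 9 libraries, Nos3 23.3% to 32.6% and Nos1 at most 0.834%. Nos2 had 33.4, 27.9 and 30.4 CPM in CK, 20.8, 22.2 and 21.3 CPM in DCM, against 15.2, 18.5 and 21.8 CPM in SPM. All diabetic libraries were below all control libraries. Nos2 fell by 0.51 in DCM (SE 0.09, adjusted p = 0.00374) and by 0.72 in SPM (SE 0.13, adjusted p = 0.0050, or 0.0249 without SPM replicate 2) compared to CK, and SPM and DCM did not differ past the threshold (-0.21, 95% interval -0.47 to 0.06). The log2 ratio of Nos3 to Nos1 was higher by 2.18 in DCM compared to CK with no overlap (exact permutation p = 0.1, adjusted 0.24), and by 1.21 without DCM replicate 2, the library with a single count of Nos1. Nos1 was tested only through its counts in CK, where it was highest, so the direction of this ratio is no result.

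**Figure D3:**
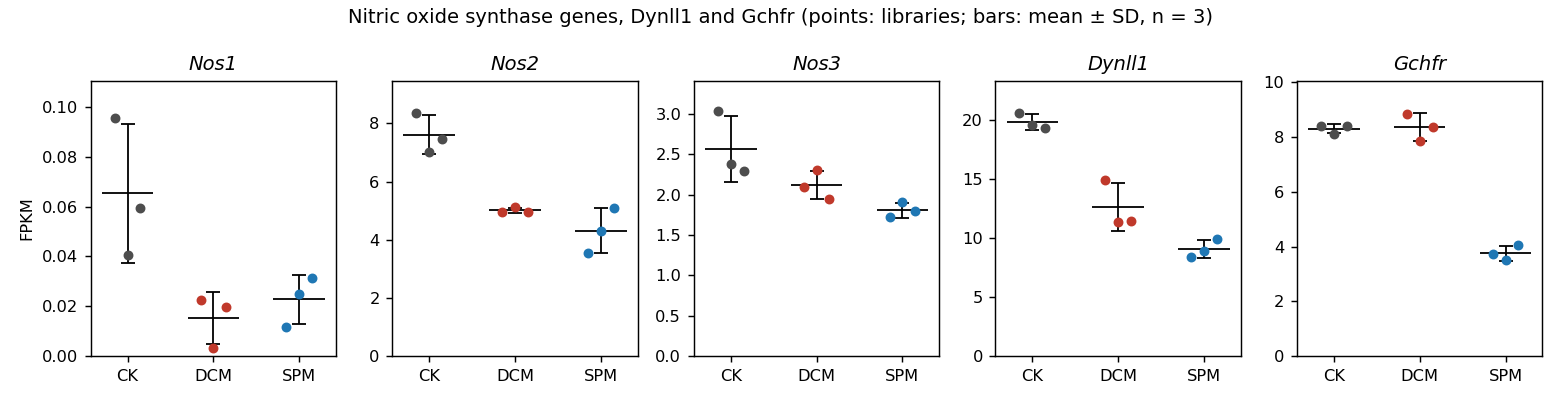
FPKM of the 3 nitric oxide synthase genes and of Dynll1 and Gchfr (y axis) in the 9 libraries (x axis: group). Points are libraries 1, 2 and 3 from left to right, bars the mean ± SD of 3 libraries. Nos1 and Nos2 were lower in each DCM and SPM library than in each CK library, Dynll1 stepped down from CK to DCM to SPM, and Gchfr was low in SPM only. Nos1 had enough counts for a test only through CK, so its direction is no result.

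Among the partners and cofactor enzymes of nitric oxide synthases, 3 of 19 tested genes passed in DCM compared to CK (among them Nos2 and Dynll1, both lower), beside 10.4% of all genes. In SPM compared to DCM 6 passed, beside 16.6%, with 3 higher (Hsp90aa1, Pts and Calm2) and 3 lower. In SPM compared to CK 8 passed, beside 27.4%, with 3 higher and 5 lower. Without SPM replicate 2 the SPM counts were 0 and 4 genes, beside 0.486% and 10.4% of all genes. With the GC offset they were 3 and 5, beside 3.1% and 21.4%. Hsp90aa1 rose by 0.51 in SPM compared to DCM (adjusted p = 0.00956, or 0.0520 without SPM replicate 2 and 0.0357 with the GC offset). Dynll1, the dynein light chain that was first described as a protein inhibitor of neuronal nitric oxide synthase, fell from 42.6 ± 1.2 CPM in CK to 28.8 ± 4.1 CPM in DCM, against 20.8 ± 1.8 CPM in SPM (SD, n = 3). The log2 differences were -0.56 in DCM compared to CK (adjusted p = 0.00368), -0.47 in SPM compared to DCM (adjusted p = 0.0221, or 0.0924 without SPM replicate 2) and -1.03 in SPM compared to CK (adjusted p = 0.000360, or 0.00302 without SPM replicate 2). Gchfr, the feedback regulator of GTP cyclohydrolase, the first enzyme of tetrahydrobiopterin synthesis, had 5.16, 4.97 and 5.26 CPM in CK, 5.73, 5.25 and 5.55 CPM in DCM, against 2.44, 2.31 and 2.67 CPM in SPM. It fell by 1.15 in SPM compared to DCM (SE 0.16, adjusted p = 0.00813, or 0.0520 without SPM replicate 2) and by 1.05 compared to CK (adjusted p = 0.00298, or 0.0255). Gch1 itself fell by 0.41 in SPM compared to CK (adjusted p = 0.0224, or 0.115 without SPM replicate 2). The abundant partners Hsp90ab1 (1547 to 1656 CPM in group means) and Calm3 (253 to 288 CPM) differed by at most 0.18 on the log2 scale, and Calm3 passed only in SPM compared to CK, by -0.17 (adjusted p = 0.0447, or 0.196 without SPM replicate 2), a value that was 0.00 with the GC offset.

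Downstream of nitric oxide, 0 of 15 tested genes of the cyclic GMP response passed in DCM compared to CK with edgeR or DESeq2, beside 10.4% of all genes with edgeR. At an unadjusted p below 0.05 there was 1, beside 24.6%. With the GC offset 1 passed (Pde1c, 0.27, adjusted p = 0.0213), beside 13.3%. Between SPM and DCM 4 of 14 passed, beside 16.6% of all genes. Prkg1, the cyclic GMP-dependent protein kinase, rose by 0.67 (adjusted p = 0.00986), Pde1c and Pde3a, which break down cyclic nucleotides, rose by 0.41 (adjusted p = 0.0131) and 0.29 (adjusted p = 0.0466), and Vasp, a substrate of the kinase, fell by 0.30 (adjusted p = 0.0199). None of these passed without SPM replicate 2 or with the GC offset. Between SPM and CK 6 of 14 passed, beside 27.4% of all genes. Prkg1 (0.84, adjusted p = 0.0102, or 0.0435 without SPM replicate 2), Pde1c (0.64, adjusted p = 0.00203, or 0.0120) and Vasp (-0.50, adjusted p = 0.00540, or 0.0323) did so without SPM replicate 2 as well. Mb, the myoglobin that scavenges nitric oxide, differed by -0.23 (adjusted p = 0.0227, or 0.107 without SPM replicate 2 and 0.150 with the GC offset). Adh5, which breaks down S-nitrosoglutathione, lay between 86.4 and 88.9 CPM in group means and passed in no comparison.

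Of the dimethylarginine hydrolases, Ddah2 had the higher level, and it was the one member that passed the test in both SPM comparisons, with lower levels in SPM. Ddah2 (ENSMUSG00000007039, chr17:35059035-35062095, plus strand) had 59.4, 48.3 and 46.8 CPM in CK, 50.03, 46.2 and 46.5 CPM in DCM, against 41.1, 38.0 and 36.3 CPM in SPM. Every SPM library was below every library of the other groups, and CK and DCM overlapped. It fell in SPM compared to DCM by 0.30 (SE 0.07, adjusted p = 0.0258), a fold of 0.813 (95% interval 0.726 to 0.910), and in SPM compared to CK by 0.42 (SE 0.10, adjusted p = 0.0153), a fold of 0.747 (0.641 to 0.872). DCM compared to CK gave -0.12 (-0.32 to 0.09, adjusted p = 0.503), and the value was 0.0001 without CK replicate 1.

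Leaving out SPM replicate 2 kept the size of both differences, at -0.29 and -0.41, but not the calls (adjusted p = 0.138 and 0.0679). The call between SPM and DCM was also lost without any one of DCM replicates 1 and 2 and SPM replicate 3 (adjusted p between 0.05004 and 0.0730). With the GC offset the differences shrank to -0.10 (adjusted p = 0.456) and -0.23 (adjusted p = 0.0811). Ddah2 has a GC content of 59.4%, and 2580 genes of between 55% and 60% GC had a median of -0.17 in SPM compared to DCM.

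Ddah1 (ENSMUSG00000028194, chr3:145758675-145894277, plus strand), the other hydrolase, showed another order of groups. It had 6.28, 7.29 and 5.71 CPM in CK, 5.10, 4.20 and 4.87 CPM in DCM, against 4.98, 5.36 and 5.04 CPM in SPM. All diabetic libraries, with or without spermine, were below all control libraries. The log2 fold change was -0.44 in DCM compared to CK (-0.81 to -0.08, adjusted p = 0.118) and -0.33 in SPM compared to CK (-0.65 to -0.01, adjusted p = 0.117), and neither passed. SPM compared to DCM gave 0.12 (-0.20 to 0.45, adjusted p = 0.586), and without SPM replicate 2 the SPM values were 0.09 and, compared to CK, -0.36. Its GC content of 49.5% is lower than that of Ddah2, and with the GC offset the values were -0.44, -0.31 and 0.13.

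The ratio of Ddah2 to Ddah1 on FPKM was 26.5, 18.6 and 23.0 in CK, 27.5, 30.9 and 26.8 in DCM and 23.2, 19.9 and 20.2 in SPM. DCM libraries were all above those of both other groups. The log2 ratio differed by 0.33 in DCM compared to CK and by -0.43 in SPM compared to DCM (exact permutation p = 0.1 for each, the smallest possible, and 0.24 adjusted), and by -0.10 in SPM compared to CK (exact permutation p = 0.7). Both tests with SPM count SPM replicate 2 as a full library. Of 8 tested genes that form or break down methylarginines, 0 passed in DCM compared to CK with edgeR or DESeq2 (2 at an unadjusted p below 0.05, beside 24.6% of all genes). In SPM compared to DCM 2 passed, beside 16.6% of all genes (the methyltransferases Carm1, -0.33, adjusted p = 0.0184, and Prmt5, -0.25, adjusted p = 0.0376). In SPM compared to CK 3 passed, beside 27.4% (Prmt2, Prmt5 and Prmt7, between -0.25 and -0.31). The genes that passed in SPM were all lower, and 0 of them passed without SPM replicate 2 or with the GC offset. Prmt1, which makes most asymmetric dimethylarginine, had 69.9 ± 4.3 CPM in CK, 82.8 ± 6.4 CPM in DCM, against 70.9 ± 4.6 CPM in SPM (SD, n = 3), with every DCM library above every CK library (0.24, adjusted p = 0.0783), and it passed with the GC offset (0.23, adjusted p = 0.0391).

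**Figure D4:**
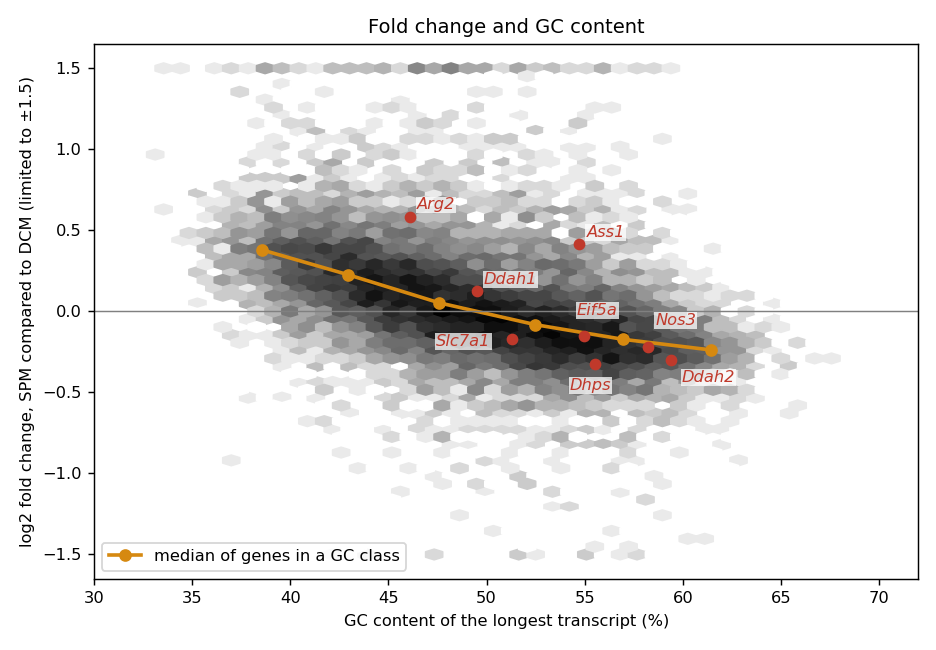
Log2 fold change in SPM compared to DCM (y axis, limited to ±1.5) against GC content of the longest transcript (x axis, %). Grey shading is the number of genes on a log scale, the orange line joins the medians of 6 GC classes, which go from 0.38 below 40% to -0.24 at 60% or more, and red points are the 8 tested members. Ddah2, Nos3 and Eif5a lie near the line, Dhps below it and Ass1 above it.

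Eif5a was held in a narrow range in all 9 libraries. Eif5a (ENSMUSG00000078812, chr11:69916714-69921958, minus strand) encodes the translation factor that carries hypusine. Its coding sequence around the lysine codon that is modified, and that of its paralog Eif5a2, are shown because the site is what the pathway acts on. Capitals mark codon 50, with 10 codons on each side, read from GENCODE M21 on GRCm38.
Eif5a: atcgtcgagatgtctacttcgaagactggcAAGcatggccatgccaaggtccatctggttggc
Eif5a2: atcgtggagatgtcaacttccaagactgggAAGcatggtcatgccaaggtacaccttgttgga
The first lies on the minus strand of chr11:69918007-69919198 and the second on the plus strand of chr3:28782169-28782742, each with an intron inside the span. They are identical at 54 of 63 bases, including codon 50.

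Eif5a had 342, 322 and 328 CPM in CK, 351, 359 and 327 CPM in DCM, against 304, 310.0 and 313 CPM in SPM. SPM libraries were all below those of DCM and CK, with a group mean of 309 ± 4.5 CPM (SD, n = 3), against 346 ± 16.8 CPM in DCM and 331 ± 10.3 CPM in CK. The log2 fold change was 0.06 in DCM compared to CK (-0.09 to 0.22, adjusted p = 0.653), -0.15 in SPM compared to DCM (-0.30 to -0.01, adjusted p = 0.129) and -0.10 in SPM compared to CK (-0.21 to 0.02, adjusted p = 0.188). Without SPM replicate 2 the SPM values were -0.15 and -0.09. With the GC offset they were -0.02 and 0.03, and on log2(FPKM + 0.1) with limma the value for SPM compared to CK was -0.19 (adjusted p = 0.0225), so the direction and the call both moved with the scaling. Processed copies of Eif5a exist in the genome, and how the counting treated reads shared with them was not given in the sources used here.

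Eif5a2 was measured at a small fraction of that level, with 2.49, 2.57 and 2.57 CPM in CK, 3.73, 2.81 and 3.02 CPM in DCM, against 4.74, 4.14 and 3.81 CPM in SPM. The groups did not overlap in either step, as held for 29.3% of all genes in DCM compared to CK and 39.3% in SPM compared to DCM. Neither step passed the test (0.33, adjusted p = 0.396, and 0.41, adjusted p = 0.143), and the second was 0.07 with the GC offset. Eif5a2 rose in SPM compared to CK by 0.73 (SE 0.18, adjusted p = 0.0165), but not past the test without SPM replicate 2 (0.75, adjusted p = 0.0830) or with the GC offset (0.40, adjusted p = 0.150). Its transcript has a GC content of 38.8%, against 54.98% for Eif5a.

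Dhps (ENSMUSG00000060038, chr8:85071757-85075162, plus strand), the deoxyhypusine synthase that moves the aminobutyl group from spermidine to eIF5A, was highest in DCM. It had 28.6, 24.5 and 24.0 CPM in CK, 29.3, 34.1 and 28.0 CPM in DCM, against 26.2, 23.0 and 23.3 CPM in SPM. Every SPM library was below every DCM library, whereas CK replicate 1 lay within the DCM range and SPM overlapped CK. Dhps fell in SPM compared to DCM by 0.33 (SE 0.09, adjusted p = 0.0414), a fold of 0.797 (0.689 to 0.922). The call was lost without SPM replicate 2 (-0.29, adjusted p = 0.176), with the GC offset (-0.18, adjusted p = 0.230), without DCM replicate 1 (adjusted p = 0.0772), without DCM replicate 2 (adjusted p = 0.126) and without SPM replicate 3 (adjusted p = 0.0726). DCM compared to CK gave 0.24 (0.02 to 0.47, adjusted p = 0.165), and SPM compared to CK gave -0.09 (-0.30 to 0.12, adjusted p = 0.496, or -0.05 without SPM replicate 2).

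Relative to Eif5a on FPKM, the log2 ratio of Dhps differed by 0.18 in DCM compared to CK and by -0.17 in SPM compared to DCM, with overlap in both (exact permutation p = 0.2 and 0.3). Of the exonic bases of Dhps, 5.5% are shared with Wdr83 on the opposite strand (929 to 1484 counts per library).

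Dohh (ENSMUSG00000078440, chr10:81384428-81388352, plus strand) encodes deoxyhypusine hydroxylase, which completes hypusine, and it was listed at 0 counts in 7 of 9 libraries. SPM replicates 2 and 3 held 3 counts each. A count of 0 allows up to 3 counts, or 0.0523 to 0.0695 FPKM in these 7 libraries, so no difference between groups was detectable and no fold change is given. The ratio of Dohh to Eif5a could not be formed.

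The annotation at Dohh bears on these counts. The longest transcript of Dohh shares 972 of its 1444 bases (67.3%) with Gm48551, a read-through gene on the same strand that starts within Dohh and continues past it, and 472 bases belong to Dohh alone. Gm48551 held 4 to 18 counts per library. The sequences below are shown because they are where both transcripts part: 40 shared bases in lower case end at position 81387918 of chromosome 10, and the 20 bases in capitals are each transcript's own.
Dohh: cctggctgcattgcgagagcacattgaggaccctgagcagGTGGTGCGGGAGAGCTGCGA
Gm48551: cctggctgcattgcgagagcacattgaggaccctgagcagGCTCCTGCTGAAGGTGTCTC
The first occupies chr10:81387879-81387938 and the second chr10:81387879-81390378 with an intron inside the span. How reads on shared exons were assigned was not given in the sources used here, and the part of this overlap in the counts of Dohh was not tested.

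**Figure D5:**
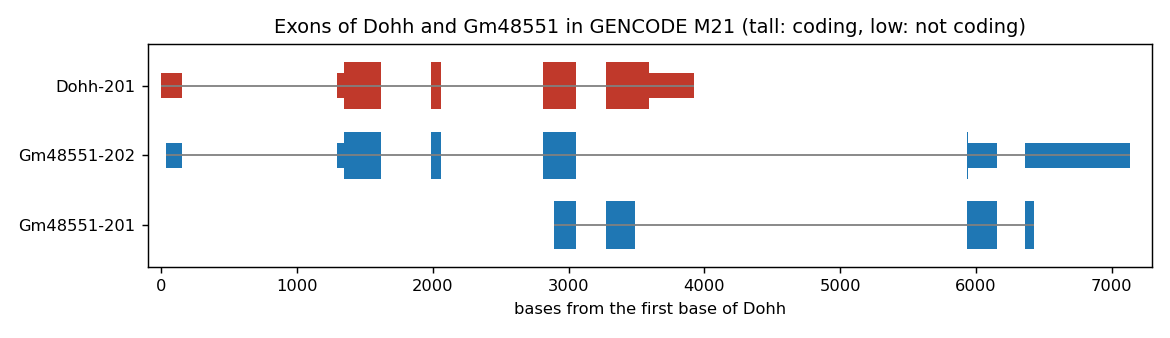
Exons of the longest Dohh transcript (red) and of both Gm48551 transcripts (blue) in GENCODE M21, drawn to scale in bases from the first base of Dohh (x axis), with coding parts tall and other exonic parts low. The transcripts share 972 bases, and Gm48551 continues downstream of Dohh.

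Among 13 genes of the paralog and translation elongation list, 2 passed in DCM compared to CK, both higher, beside 10.4% of all genes. Eef2k, the kinase that inhibits elongation factor 2, had 67.1, 61.0 and 67.2 CPM in CK and 104, 119 and 107 CPM in DCM, and rose by 0.76 (SE 0.08, adjusted p = 0.000101). In SPM it had 109, 97.5 and 87.9 CPM, above every CK library, with a rise of 0.59 compared to CK (adjusted p = 0.00242, or 0.0136 without SPM replicate 2). Eif4a1, a helicase of translation initiation, rose by 0.27 in DCM (adjusted p = 0.0337). Eef2 itself averaged 3328 ± 186 CPM (SD, n = 3) in CK, against 4048 ± 341 CPM in DCM, and did not pass with edgeR (0.28, adjusted p = 0.0577), but did with the GC offset (0.26, adjusted p = 0.0177) and with DESeq2 (adjusted p = 0.00534).

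Between SPM and DCM, Eif5, the initiation factor that despite its name is not modified by hypusine, rose from 76.0 ± 6.8 to 121 ± 5.2 CPM, by 0.67 (SE 0.08, adjusted p = 0.00652). Of the 18 genes of all 6 lists past the test in this comparison it was the only one that also passed without SPM replicate 2 (adjusted p = 0.0217), and it passed with the GC offset (0.42, adjusted p = 0.0222). Eef1a2, the muscle form of elongation factor 1A, fell by 0.37 (adjusted p = 0.0257, or 0.1199 without SPM replicate 2 and 0.241 with the GC offset). Eef1a1, the abundant form, lay between 2263 and 2445 CPM in group means and passed in no comparison.

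Polyamine synthesis takes ornithine from arginase and supplies spermidine for hypusine. Of 15 tested genes of polyamine supply, 1 passed in DCM compared to CK (higher), 3 in SPM compared to DCM (1 higher, 2 lower) and 8 in SPM compared to CK (4 higher, 4 lower). The shares over all genes were 10.4%, 16.6% and 27.4% in the same order. With the GC offset the counts of the list were 5, 0 and 5 genes, beside 13.3%, 3.1% and 21.4% of all genes. Without SPM replicate 2 the SPM counts were 0 and 4, beside 0.486% and 10.4%. Srm, the spermidine synthase, had 15.4, 15.05 and 14.9 CPM in CK, 15.1, 13.9 and 13.9 CPM in DCM, against 10.1, 8.71 and 9.70 CPM in SPM, and fell by 0.58 in SPM compared to DCM (adjusted p = 0.0111, or 0.0668 without SPM replicate 2 and 0.0629 with the GC offset) and by 0.67 compared to CK (adjusted p = 0.00198, or 0.0170). The ornithine decarboxylase gene Odc1 was higher in DCM than in CK by 0.41 (adjusted p = 0.00340) and lower in SPM than in DCM by 0.24 (adjusted p = 0.0445, or 0.197 without SPM replicate 2 and 0.178 with the GC offset). The genes that passed higher in SPM compared to CK were Azin1, the antizyme inhibitor (0.58, adjusted p = 0.00564, or 0.0285 without SPM replicate 2), Atp13a3, a polyamine transporter (0.55, adjusted p = 0.0122, or 0.0497), Amd1, the S-adenosylmethionine decarboxylase (0.39, adjusted p = 0.0303, or 0.0936 without SPM replicate 2 and 0.199 with the GC offset), and Sms, the spermine synthase (0.26, adjusted p = 0.0226, or 0.119 and 0.318). Atp13a3 also rose in SPM compared to DCM by 0.40 (adjusted p = 0.0147, or 0.0787 without SPM replicate 2 and 0.535 with the GC offset). Among the antizymes, which hold ornithine decarboxylase inactive, Oaz1 lay between 553 and 611 CPM in group means and passed in no comparison, and Oaz2 had means of 192, 180.0 and 166 CPM in CK, DCM and SPM and fell in SPM compared to CK by 0.21 (adjusted p = 0.0183, or 0.113 without SPM replicate 2 and 0.143 with the GC offset). Also lower in SPM compared to CK were Smox, the spermine oxidase, and Atp13a2. Smox fell by 0.47 (adjusted p = 0.00506, or 0.0359 without SPM replicate 2 and 0.00914 with the GC offset). Atp13a2 fell by 0.27 (adjusted p = 0.0389, or 0.111 and 0.678).

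Over the 6 lists together, 8 of 83 tested genes passed in DCM compared to CK (5 higher, 3 lower), a share of 9.64% beside 10.4% of all genes, and 17 genes with the GC offset. Between SPM and DCM 18 of 83 passed (21.7% beside 16.6%), with 9 in each direction, and 1 of them without SPM replicate 2 and 4 genes with the GC offset. Between SPM and CK 37 of 84 passed (44.0% beside 27.4%), 17 higher and 20 lower, with 17 genes without SPM replicate 2 and 24 with the GC offset. Libraries of both groups did not overlap for 2 of 8 tested members in DCM compared to CK (29.3% of all genes), and both (Nos1 and Ddah1) were lower in DCM (14.7%). Between SPM and DCM this held for 4 of 8 (39.3%), and all 4 (Nos3, Ddah2, Eif5a and Dhps) were lower in SPM (19.5%). Their GC content lay between 54.98% and 59.4%. In this comparison 19.0% of genes of between 55% and 60% GC passed lower, beside 7.76% of all genes. With the GC offset the log2 fold changes of these members were -0.03, -0.10, -0.02 and -0.18. Between SPM and CK the libraries did not overlap for 6 of 9 (46.3%). Nos1, Nos3, Ddah1, Ddah2 and Eif5a were lower in SPM (5 members, beside 23.5%), and Arg2 was higher. Nos1 and Arg2 entered these tests only through the group in which they were highest, so their direction in these counts is no result.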

How the data were processed

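Poly(A)-selected heart RNA was sequenced per the methods of the study. The authors deposited a matrix of raw counts per gene for 9 libraries and FPKM values per library. The submitters' notes name Bowtie 0.12.2 and the builds mm8 and mm9, yet the transcript lengths implied by FPKM equal the longest GENCODE M21 transcript within 0.5 bases for 22301 of 22820 matched genes, so names, coordinates and GC content were taken from GENCODE M21 (GRCm38); 31 gene IDs did not match. Counts were normalized by TMM, filtered with filterByExpr and tested in pairs of groups with edgeR 4.0.16 (quasi-likelihood, R 4.3.3), with Benjamini-Hochberg adjustment over all genes tested. Normalized CPM use TMM library sizes. Alternatives were DESeq2 1.42.0, limma 3.58.1 on log2(FPKM + 0.1) and log2(FPKM + 1), other filters and factors, a lowess GC offset (span 0.3), a replicate block, one fit of all libraries, totals without mitochondrial genes, and leaving out each library. The scripts were tested on simulated data. Ratios were tested by two-sided exact permutation, with SPM replicate 2 included. Named genes were the members, DEGs of the pathway lists and the 2 most abundant genes of each list, and further genes past the test where a count was small; genes most alike a member were to be named for members that were DEGs, and there were 0. Members and lists were chosen with earlier results of these data known. P-values measure the spread between these libraries, which may be technical in part. Several listed genes (Oat, Prodh, Cav1, Pde2a and 5 markers) were not analysed here. The values of 1 listed gene are not reported here.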

Additional observations from a re-analysis of the deposited data

How the results depend on the processing

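Of 421 alternative estimates of the 25 member fold changes, 376 kept their direction and side of the threshold, 24 lost a call, 5 gained one and 16 turned. Those that turned were small: Ass1 in DCM compared to CK on log2(FPKM + 0.1) (-0.00024) and log2(FPKM + 1) (-0.0022) and without CK replicate 3 or DCM replicate 2 (range over left-out libraries -0.083 to 0.21); Ddah2 in DCM compared to CK (-0.18 to 0.00010); Eif5a in DCM compared to CK with limma (-0.029 on both scales); Arg2 in SPM compared to DCM (-0.092 to 1.12); Slc7a1 in SPM compared to CK (-0.13 to 0.084) and with the GC offset (0.039, or 0.034 with the block); and Eif5a (0.026, alone and with the block) and Dhps (0.042, or 0.041 with the block) in SPM compared to CK with the GC offset. The ratio of Ddah2 to Ddah1 in SPM compared to CK ranged from -0.23 to 0.025, and that of Dhps to Eif5a from -0.063 to 0.064.

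The count of members past the test in SPM compared to DCM (2) was 0 with the GC offset, alone and with the block, and 0 to 2 without 1 library. In SPM compared to CK (2) it was 1 with no filter, 1 with DESeq2, 0 with the GC offset and 0 to 2 without 1 library. DEGs among members (0) numbered 0 to 1 without 1 library in both SPM comparisons, where the 1 was Ass1 without SPM replicate 3, and in SPM compared to CK 1 (Ass1) with the GC offset and block and 2 (Nos3 and Ddah2) at a fold of 1.3. The fits without SPM replicate 3 rest on the other SPM libraries, which may not be independent samples. Listed genes past the test in DCM compared to CK (8) numbered 14 with no filter, 17 with the GC offset, 13 with the offset and block and 6 to 9 without 1 library. In SPM compared to DCM (18) they numbered 4, 6 with the block, and 1 to 19, with 8 and 5 when DCM replicates 1 and 2 were left out in turn and 1 when SPM replicate 2 was, and in SPM compared to CK (37) 24, 24 with the block, and 17 to 32. The cause was not tested; leaving out a library also leaves fewer samples.

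Replicate numbers did not pair the libraries (correlation of same-numbered deviations -0.0745 to 0.205). With the replicate block 0, 2 and 1 members passed in the 3 comparisons, and Nos3 was the one lost in SPM compared to CK (adjusted p = 0.0641). Depth limits Arg2, Nos1 and Dohh, which had at most 35, 29 and 3 counts in a library.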
